A study of Mus musculus with 2 samples.

Results

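Lipid handling and cholesterol efflux genes were followed through the immune cells of the mouse dorsal root ganglion (DRG). The genes are Apoe, Lpl, Abca1, Abcg1, Lipa, Npc1, Npc2, Plin2, Fabp5 and Ch25h, chosen by name with earlier results of these data known. All 10 were among the 16819 genes of the filtered expression matrix. The samples were naive wild-type BALB/cAnNRj mice, 3 male and 3 female, with no treatment; the labels give no age for these mice, and the study's methods state only a minimum age for all of its mice. Ganglia were digested and sorted for live CD45+ cells, and each mouse was marked with its own hashtag antibody before all mice were run in a single lane of the 10x 3′ assay, which counts molecules as UMIs (unique molecular identifiers). The study's methods give pooled cervical, thoracic and lumbar ganglia for flow cytometry and do not name the levels used for sequencing. The filtered matrix held 2668 cells of the 3 male mice, and the 1073 cells of the 3 female mice were recovered from the larger matrix with the same filters. Macrophages were the cells with at least 0.5% of their UMIs from C1qa, C1qb and C1qc, which encode the complement C1q chains. They made up 1484 (55.6%) of the 2668 male cells and 610 of the 1073 female cells.

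Macrophages take up lipid with dead cells, myelin and lipoproteins, free the cholesterol in the lysosome, and then store it as ester or pass it out of the cell. ABCA1 and ABCG1 are the transporters that load cholesterol onto lipoproteins, APOE is an apolipoprotein that carries it, and all 3 genes are known targets of the liver X receptors (LXR), which sense oxysterols. LIPA is the acid lipase that splits cholesteryl esters and triglycerides in the lysosome, and NPC2 and NPC1 hand the freed cholesterol out of that compartment. PLIN2 coats lipid droplets, FABP5 binds fatty acids in the cytosol, LPL is the secreted lipase that splits lipoprotein triglycerides, and CH25H makes 25-hydroxycholesterol.

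The bases upstream of Abca1 and Ch25h are shown because these 2 genes moved in opposite directions between the macrophage groups described below. RefSeq promoter windows (GRCm38.p6, 250 bases before the annotated start) were at hand for 6 of the 10 genes (Apoe, Abca1, Lipa, Npc2, Plin2 and Ch25h). The first lies at chr4:53159896-53160145 and the second at chr19:34475149-34475398, both on the minus strand and both printed 5′ to 3′ in the direction of the gene.
Abca1: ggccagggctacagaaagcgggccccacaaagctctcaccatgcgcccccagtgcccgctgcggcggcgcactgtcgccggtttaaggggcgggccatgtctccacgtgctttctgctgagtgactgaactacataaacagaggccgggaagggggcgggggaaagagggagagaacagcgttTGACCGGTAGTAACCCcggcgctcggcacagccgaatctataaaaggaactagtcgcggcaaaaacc
Ch25h: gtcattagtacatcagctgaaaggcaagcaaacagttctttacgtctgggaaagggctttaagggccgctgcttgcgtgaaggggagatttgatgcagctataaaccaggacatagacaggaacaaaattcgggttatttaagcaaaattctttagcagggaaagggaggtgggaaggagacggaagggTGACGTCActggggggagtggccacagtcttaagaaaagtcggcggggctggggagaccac
The capitals in Abca1 mark a repeat of the type that LXR and its partner RXR bind, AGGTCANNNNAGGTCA, read on the opposite strand at 67 to 52 bases before the start with 3 mismatches. At 3 mismatches 18.5% of the 32851 promoter windows of the table held such a repeat, and at 2 mismatches 2.57% did and none of the 6 genes, so the match is a description of the letters only. The capitals in Ch25h mark TGACGTCA, the cyclic AMP response element, at 61 to 54 bases before the RefSeq start, which 1.55% of the windows held. The GENCODE M21 gene of Ch25h reaches to chr19:34475164, inside the printed window, so the GENCODE start of this minus-strand gene differs from the RefSeq start. Of 4 other motifs searched on both strands, CACGTG (6.02% of windows) was found in Abca1 at 147 to 142 bases before the start, the single half-site AGGTCA (14.0%) in Plin2, GGGCGG (32.7%) in Abca1 and Npc2, and TGANTCA (6.75%) in none of the 6. CACGTG and GGGCGG overlap neither set of capitals, and the half-site AGGTCA is part of the repeat. The motifs were chosen with the contents of these windows in view.

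The 1484 male macrophages gave 183, 519 and 782 cells for mouse 1, 2 and 3, and each group was summed per mouse before any test, so that n is 3 mice. Of them 678 (45.7%) had an Fcrls UMI and no Ccr2 UMI (Fcrls-only), 156 (10.5%) had Ccr2 and no Fcrls (Ccr2-only), 583 (39.3%) had both (double-positive) and 67 (4.5%) had neither. Fcrls is an Fc receptor-like gene known from resident macrophages and Ccr2 is the chemokine receptor of monocytes and their recent descendants. Their median depth was 8521.5, 7999.5, 9080 and 7058 UMIs per cell, so a cell with both UMIs tended to be a deeper cell. The other types, named from marker genes, were 129 monocytes, 52 dendritic cells (DCs), 572 neutrophils, 163 B cells and 108 T and NK cells, and 160 cells stayed unassigned. UMIs of macrophage genes were found in every type: Pf4, a macrophage gene that no gate used, stood at 0.95% of its macrophage share of UMIs in monocytes, 1.07% in T and NK cells, 1.12% in neutrophils, 1.21% in B cells and 1.96% in DCs. Values at about these shares are read as background, and the source of these UMIs was not tested. A gene's share of a summed RNA pool does not separate fewer expressing cells from less RNA per cell.

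Apoe was a macrophage gene with a lower level in monocytes. Its level, in counts per 1000000 UMIs scaled by the TMM factors of the fit (CPM), was 42939, 44062 and 39512 in the macrophages of the 3 mice and 2569, 3589 and 2681 in the monocytes. It was 584.6 to 1575 CPM in neutrophils, 336 to 1874 in DCs, 449.8 to 542.1 in B cells and 336.4 to 488.9 in T and NK cells. Macrophages lay above every other type in each mouse, monocytes lay above the remaining 4 types, and each of those 4 overlapped the next in the order of the means. Relative to its macrophage share of UMIs, unscaled and pooled over mice, Apoe was 8.58% in monocytes, 2.86% in DCs and 1.74% in B cells. It was 1.27% in neutrophils and 1.45% in T and NK cells, so that monocytes were well above the Pf4 background and the lymphocytes close to it. The TMM-scaled means put neutrophils (966 CPM) above DCs (881). The unassigned cells, which are not in the order above, were at 13.8% of the macrophage share. A UMI of Apoe was found in 96.3% ± 2.47 (SD, n = 3 mice) of B cells at medians of 3342 to 3460 UMIs per cell, so the share of cells with Apoe does not separate the types, and 18.3% of all its macrophage UMIs came from the tenth of macrophages richest in it.

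Abca1 was detected mostly in macrophages, at 149.0, 163.5 and 188.1 CPM in the 3 mice. The other 5 types lay between 0 and 17.6 CPM in every mouse and rested on 5 to 10 UMIs each, and neighbours in their order overlapped. Relative to its macrophage share of UMIs, again unscaled and pooled, Abca1 was 7.92% in B cells and 7.08% in T and NK cells. It was 4.29% in DCs, 3.64% in monocytes and 0.633% in neutrophils. On these few UMIs that was above the Pf4 share in each type but neutrophils. The unassigned cells, with 24 Abca1 UMIs, were at 10.0%. A UMI of Abca1 was found in 60.9% ± 7.65 of macrophages and in 4.38% ± 0.411 of B cells, and after thinning every cell to 2000 UMIs in 22.4% ± 2.62 and 1.23% ± 1.13. Abcg1, the companion transporter, had no such pattern: its mean CPM was 33.2 ± 6.48 (SD, n = 3 mice) in macrophages and ran from 27.3 ± 1.23 in DCs to 44.6 ± 7.41 in T and NK cells, with each neighbour in that order overlapping the next.

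Among the lysosomal genes, Npc2 was shared by the myeloid types. It stood at 1312, 1558 and 1501 CPM in monocytes, 1179, 1094 and 1138 in macrophages, and 1008, 904.0 and 1053 in DCs, in that order with no overlap. Neutrophils, B cells and T and NK cells followed at 136.0 to 246.0 CPM and overlapped. Lipa was at 110.2, 112.7 and 105.0 CPM in macrophages and at 106.4, 93.7 and 58.3 in monocytes, which overlapped, and the other types had 11.1 to 41.3 CPM. Npc1, the membrane partner of NPC2, was higher in macrophages, at 35.4, 38.3 and 42.3 CPM, than in any other type of any mouse, where it reached 26.2 CPM in the monocytes of mouse 2 and 0 in the B cells of 2 mice.

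The droplet and fatty acid genes went different ways. Plin2 was highest in monocytes (365 ± 55.0 CPM) and macrophages (338 ± 8.40), which overlapped, then in neutrophils (259 ± 50.9) and DCs (137 ± 15.4), and was lowest in T and NK cells (30.9 ± 22.0) and B cells (27.4 ± 5.13). Fabp5 was nearly absent from macrophages, with 9, 32 and 57 UMIs in the 3 mice (6.12, 9.29 and 7.72 CPM) and a UMI in 5.66% ± 1.17 of cells. It was higher in T and NK cells (158.3, 52.9 and 91.5 CPM), B cells (55.5, 48.5 and 98.8), monocytes (85.1, 26.2 and 59.3) and neutrophils (31.0, 21.8 and 34.2), with no overlap with macrophages in any of the 4. DCs had only 3 Fabp5 UMIs in all. The unassigned cells had 159, at 1472% of the macrophage share of UMIs.

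Lpl and Ch25h were low genes, and both fell under the count filter of the fit over cell types. Ch25h had 62, 99 and 321 UMIs in the macrophages of the 3 mice (42.2, 28.8 and 43.5 CPM). The other types together held 8 UMIs: 4 in DCs, 2 in monocytes, 1 in neutrophils, 1 in B cells and 0 of 108 cells in T and NK cells, which allows a share of up to 2.78% of cells with a UMI. In unscaled CPM macrophages were at least 7.32-fold higher than T and NK cells at a limit of 3 counts over the group, and the ratio to neutrophils was 175 (31.3 to 6945, 95% exact interval of counting error only) and to DCs 6.47 (2.51 to 23.9). Its UMIs were uneven over cells: 482 UMIs lay in 260 of the 1484 macrophages with up to 26 in a cell, where Npc1 spread 496 UMIs over 388 cells with at most 4. Lpl had 39, 55 and 75 UMIs in macrophages (26.5, 15.97 and 10.2 CPM), 17, 19 and 11 in neutrophils (22.9, 46.1 and 6.48 CPM), and none in 163 B cells, which allows a share of up to 1.84%. It was highest in the unassigned cells, at 277.8, 105.5 and 74.6 unscaled CPM. In these cells a list of fibroblast marker genes, Dcn and Lum among them, took 0.427% to 0.660% of UMIs, against 0.00405% to 0.0145% in macrophages. Which of the unassigned cells hold the Lpl UMIs was not tested.

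**Figure D1:**
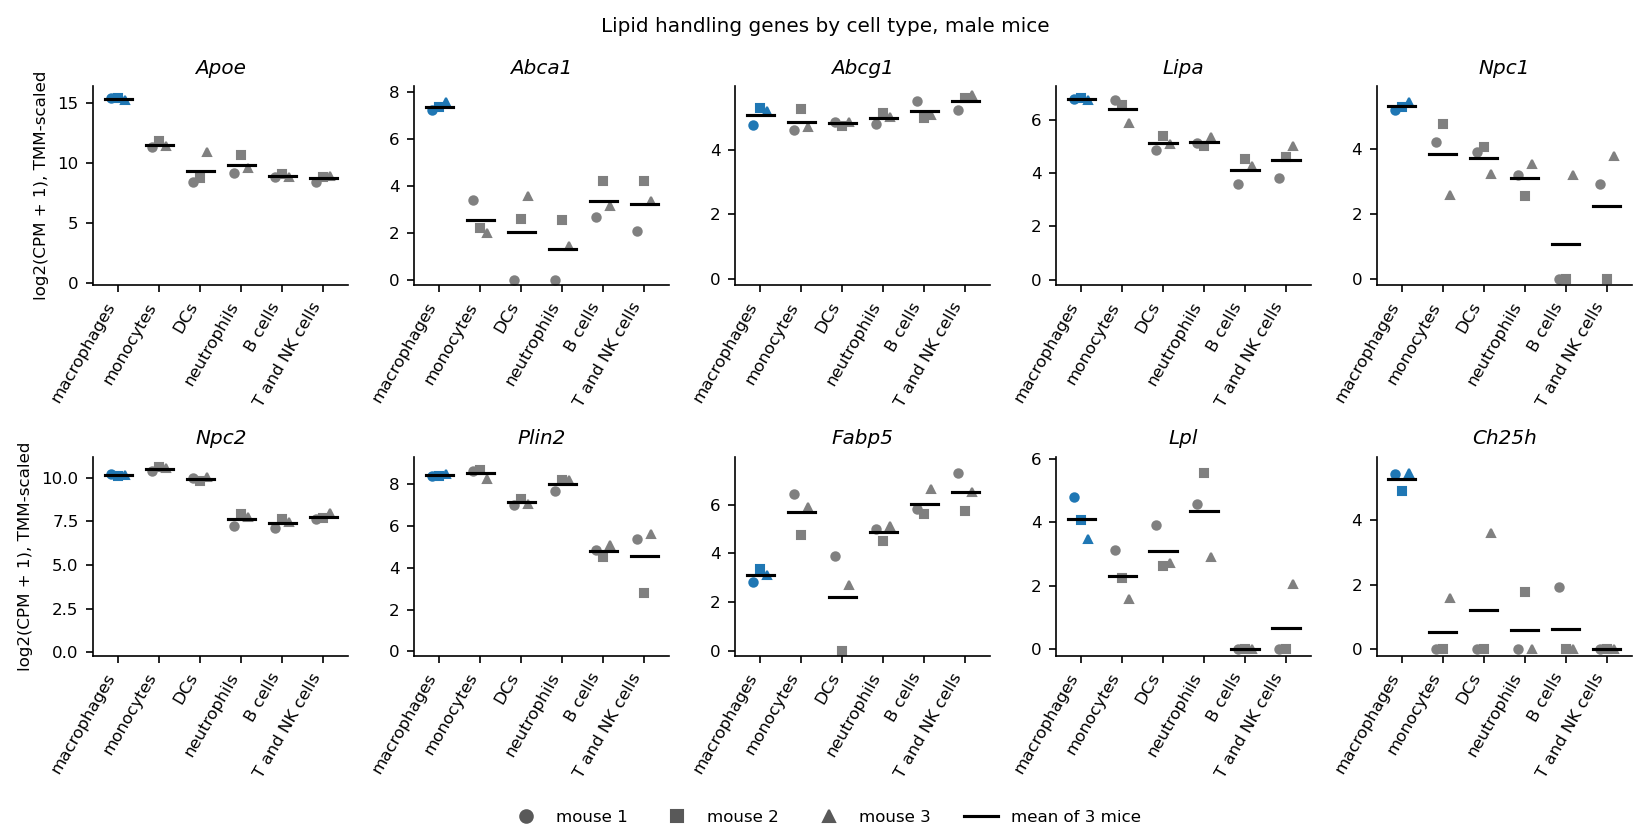
Level of each of the 10 genes in 6 cell types of the male mice, as log2(CPM + 1) with TMM scaling on the y axis; each point is 1 mouse, the bar the mean of 3 mice, and macrophages are in blue. Apoe, Abca1, Npc1 and Ch25h are highest in macrophages in all 3 mice, Abcg1 overlaps between neighbouring types, and Fabp5 is lower in macrophages than in monocytes, neutrophils, B cells and T and NK cells.

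The edgeR quasi-likelihood fit, adjusted by Benjamini-Hochberg over 6438 genes, put 29 member differences past an adjusted p of 0.05, out of 8 members tested against each of 5 types. Against monocytes 3 of 8 were higher in macrophages (background 20.4% of all genes tested) and 1 was lower (18.3%). Apoe was higher by a log2 fold change of 3.84 ± 0.384 (SE; adjusted p = 6.15e-09), Abca1 by 5.01 ± 0.34 (4.36e-12) and Npc1 by 1.67 ± 0.38 (9.03e-04), and Fabp5 fell by 2.92 ± 0.333 (5.98e-08). Npc2 (log2 fold change -0.36, adjusted p = 0.0511) was not called, and with the mouse as a block it was (0.0379). Lipa (0.42, adjusted p = 0.0822), Abcg1 (0.35, 0.246) and Plin2 (-0.09, 0.725; 95% interval -0.45 to 0.26) were not called.

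Against DCs 5 of 8 members were higher in macrophages (background 15.4%) and none lower (14.2%). They were Apoe at 5.45 ± 0.422, Abca1 at 4.38 ± 0.433, Npc1 at 1.78 ± 0.562, Lipa at 1.62 ± 0.295 and Plin2 at 1.29 ± 0.224 on the log2 scale, with adjusted p from 7.54e-11 to 0.0163. The DC sums are thin, with 5, 17 and 30 cells. Against neutrophils 5 of 8 were higher (background 35.7%) and Fabp5 alone was lower (32.3%). Abca1 differed most, by 6.49 ± 0.363, and Npc2, at 2.51 ± 0.158, separated macrophages from neutrophils where it had not separated them from DCs (0.20, 95% interval -0.11 to 0.51). Plin2 was not called against neutrophils (0.38 ± 0.171, adjusted p = 0.051), and with the mouse as a block it was (0.0441).

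Against B cells 6 of 8 members were higher in macrophages (background 31.7%) and 1 was lower (25.4%), and the counts were the same against T and NK cells (27.0% and 20.8%). The 6 were Apoe, Abca1, Lipa, Npc1, Npc2 and Plin2 in both comparisons. Plin2 differed by 3.57 ± 0.26 and 3.27 ± 0.268 on the log2 scale, and Lipa by 2.70 ± 0.29 and 2.25 ± 0.298. Fabp5, the member on the other side, fell by 3.16 ± 0.358 against B cells and fell by 3.73 ± 0.355 against T and NK cells. Abcg1 was the only member tested with no call against any of the 5 types. The 5 comparisons share the macrophage sums. Abca1 and Npc1 passed the count filter through the macrophage sums, where they were high, and Fabp5 through other types, so their calls are not independent of the filter. The members were chosen with earlier results of these data known, so their counts beside the background are a description only.

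Within macrophages the question was whether the genes follow the split into Fcrls and Ccr2 cells. Of the 9 members that passed the count filter, 5 differed between Fcrls-only and Ccr2-only macrophages: Apoe, Abca1 and Lipa were higher in Fcrls-only cells (3 of 9, background 3.79% of 6276 genes) and Lpl and Ch25h were lower (2 of 9, background 5.16%). Abca1 and Apoe thus lay on one side with Lipa, and Lpl and Ch25h on the other. Abcg1, the other efflux transporter, and the lysosomal gene Npc2 were lower in Fcrls-only cells of each mouse without a call. Since the members were chosen with earlier results of these data known, their counts beside the background are again a description only. Lpl also passed the count filter only through the groups with Ccr2, where it was high. Levels in this comparison are CPM scaled within the 3 macrophage groups.

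Abca1 was at 200.2, 172.0 and 211.9 CPM in Fcrls-only macrophages of the 3 mice, at 90.3, 116.6 and 147.1 in double-positive ones and at 83.8, 82.8 and 70.7 in Ccr2-only ones. Every mouse followed that order, and Fcrls-only cells overlapped neither other group. The log2 fold change of Fcrls-only over Ccr2-only was 1.34 ± 0.198 (SE, n = 3 mice; edgeR quasi-likelihood, adjusted p = 2.97e-04), and the call held in all 13 alternatives, with adjusted p from 4.98e-12 to 0.0445. A UMI of Abca1 was found in 72.1% ± 9.49 of Fcrls-only and 35.2% ± 6.55 of Ccr2-only cells, and at 2000 UMIs per cell in 29.3% ± 4.78 and 12.2% ± 1.49, against 1.23% ± 1.13 of B cells. Abcg1 went the other way without a call, at 23.2 ± 7.63 CPM in Fcrls-only and 33.8 ± 15.6 in Ccr2-only cells (log2 fold change -0.54, 95% interval -1.16 to 0.08, adjusted p = 0.319).

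Apoe was at 43649, 42315 and 37500 CPM in Fcrls-only cells and at 30412, 31552 and 31589 in Ccr2-only cells. The groups did not overlap, and the difference was small beside that of Abca1, at 0.40 ± 0.0788 on the log2 scale (edgeR, adjusted p = 0.00318). Without mouse 2 the fold change was 0.39 and the adjusted p 0.102. Lipa was at 123.8, 110.8 and 105.1 CPM in Fcrls-only and 67.0, 62.1 and 81.8 in Ccr2-only cells, with no overlap and a log2 fold change of 0.61 ± 0.175 (edgeR, adjusted p = 0.0341). This call was the least firm on the Fcrls side: the adjusted p was 0.221, 0.216 and 0.0677 without mouse 1, 2 and 3, and 0.251 after thinning to 2000 UMIs, where a UMI was found in 17.9% ± 3.16 and 14.2% ± 4.9 of cells.

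Lpl was at 10.1, 8.60 and 4.74 CPM in Fcrls-only cells and at 55.9, 62.1 and 12.5 in Ccr2-only cells, from 7, 17 and 17 and from 10, 21 and 9 UMIs. Ccr2-only cells were higher in each mouse with no overlap, and the Ccr2-only cells of mouse 3 were much lower than those of mouse 1 and 2. Lpl fell by 2.36 ± 0.543 on the log2 scale in Fcrls-only cells (edgeR, adjusted p = 0.00956), and the call was lost when mouse 1 (0.0711) or mouse 2 (0.139) was left out. None of its Fcrls-only sums reached the level of the count filter. Lpl thus entered the test only through the groups with Ccr2, where it was high, and its call is a description only. Ch25h was at 13.0, 18.2 and 28.4 CPM in Fcrls-only and 67.0, 35.5 and 48.5 in Ccr2-only cells, with no overlap. It fell by 1.10 ± 0.314 in Fcrls-only cells (edgeR, adjusted p = 0.0348), and the adjusted p was 0.217, 0.0631 and 0.0653 without mouse 1, 2 and 3. Both genes also lost the call with the macrophage gate at 1% C1q (adjusted p = 0.071 for Lpl and 0.0541 for Ch25h), and Ch25h with positive cells from 2 UMIs on (0.0935).

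The other members had no call, which does not show that their levels were alike. Npc1 was at 36.6 ± 4.56 and 36.1 ± 7.28 CPM in Fcrls-only and Ccr2-only cells (log2 fold change 0.09, 95% interval -0.40 to 0.58), and Plin2 at 317 ± 30.3 and 278 ± 58.4 (0.14, -0.18 to 0.46). Npc2 was lower in Fcrls-only cells of each mouse, at 996.1 ± 79.0 against 1150 ± 56.0, without passing the test (-0.21, -0.43 to 0.00, adjusted p = 0.243). Fabp5 was under the count filter, with 46 UMIs in Fcrls-only and 8 in Ccr2-only cells, and its interval was wide (0.22, -0.97 to 1.41, from the fit without the filter).

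**Figure D2:**
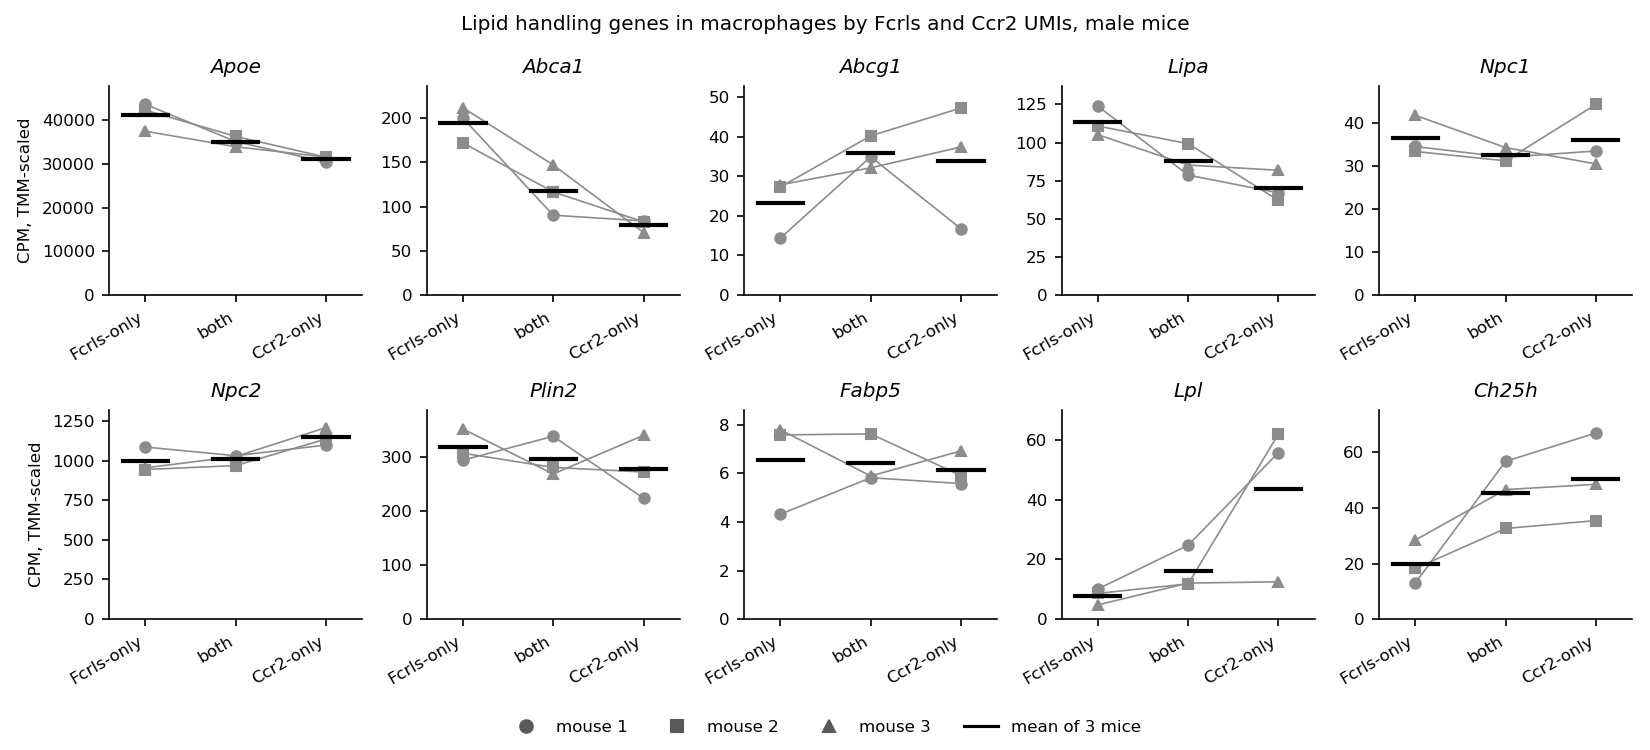
CPM of the 10 genes (y axis, TMM-scaled, from 0) in the 3 macrophage groups of the male mice; each line joins the groups of 1 mouse and the bar is the mean of 3 mice. Abca1 falls from a mean of 194.7 in Fcrls-only to 79.1 in Ccr2-only cells in every mouse, and Lpl and Ch25h are lowest in Fcrls-only cells in every mouse.

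Double-positive macrophages stood between the single-positive groups for Apoe, Abca1, Lipa, Lpl and Ch25h in the mean. Against Fcrls-only cells 1 of 9 members was lower, Abca1 (log2 fold change -0.67 ± 0.152, edgeR adjusted p = 0.0362; background 0.749%), and none was higher (background 0.637%). The Abca1 call was lost without mouse 1 (adjusted p = 0.462) or mouse 2 (0.105), after thinning to 2000 UMIs (0.375) and with positive cells from 2 UMIs on (0.122). Ch25h was just outside, at 56.8, 32.6 and 46.6 CPM in double-positive cells with no overlap with Fcrls-only cells (0.99 ± 0.243, adjusted p = 0.0546). With the mouse as a block, Ch25h (adjusted p = 0.00195) and Apoe (-0.23, 0.00313) were called as well, and all called genes rose from 87 to 452. Against Ccr2-only cells none of the 9 members was called higher (background 0.478%) or lower (0.382%). Abca1 was at 0.67 (95% interval 0.24 to 1.10, adjusted p = 0.194) and Lpl at -1.31 (-2.36 to -0.25, 0.351). With the block Abca1 (0.0186) and Apoe (0.17, 0.0477) were called.

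The levels were also followed along the amount of each marker rather than its presence. In unscaled CPM, Abca1 was 88.3 ± 25.1 in the 223 macrophages without Fcrls, 114.4 ± 28.3 in the 441 with up to 5 Fcrls UMIs per 10000, 161 ± 27.6 in the 385 with 5 to 10, and 209.5 ± 16.5 in the 435 with more. Lipa went from 72.9 ± 16.03 through 88.0 ± 9.07 and 95.8 ± 9.68 to 124 ± 13.5 over the same bins. Apoe went from 32289 ± 704 to 40762 ± 696 in the third bin and 41124 ± 3957 in the last, so that the last step was within the spread. Along Ccr2, Apoe went down at each step, from 42283 ± 1977 without Ccr2 to 30645 ± 1650 above 5 UMIs per 10000, while Abca1 dropped mainly at the first, from 195.0 ± 23.3 to 120.4 ± 31.3. The Npc2 mean of 3 mice stayed between 1001 and 1076 CPM in all bins of both markers, with single mice from 936 to 1195. These values are unscaled, where the Npc2 levels of the macrophage groups above were TMM-scaled, so the 2 readings are not on the same scale. Ch25h was not ordered by Fcrls, at 43.9 ± 9.23, 33.4 ± 10.8, 25.7 ± 8.12 and 39.0 ± 10.2 CPM. Along Ccr2 it was lowest in the cells without it, at 21.8 ± 8.81 CPM, and at 49.6 ± 19.9, 33.7 ± 5.92 and 52.4 ± 20.7 in the next bins, which were not in order. Median depth ran from 7813 to 8985 UMIs over the Fcrls bins and from 8345.5 to 9363 over the Ccr2 bins. These bins are a description without a test, since they share cells with the groups above.

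**Figure D3:**
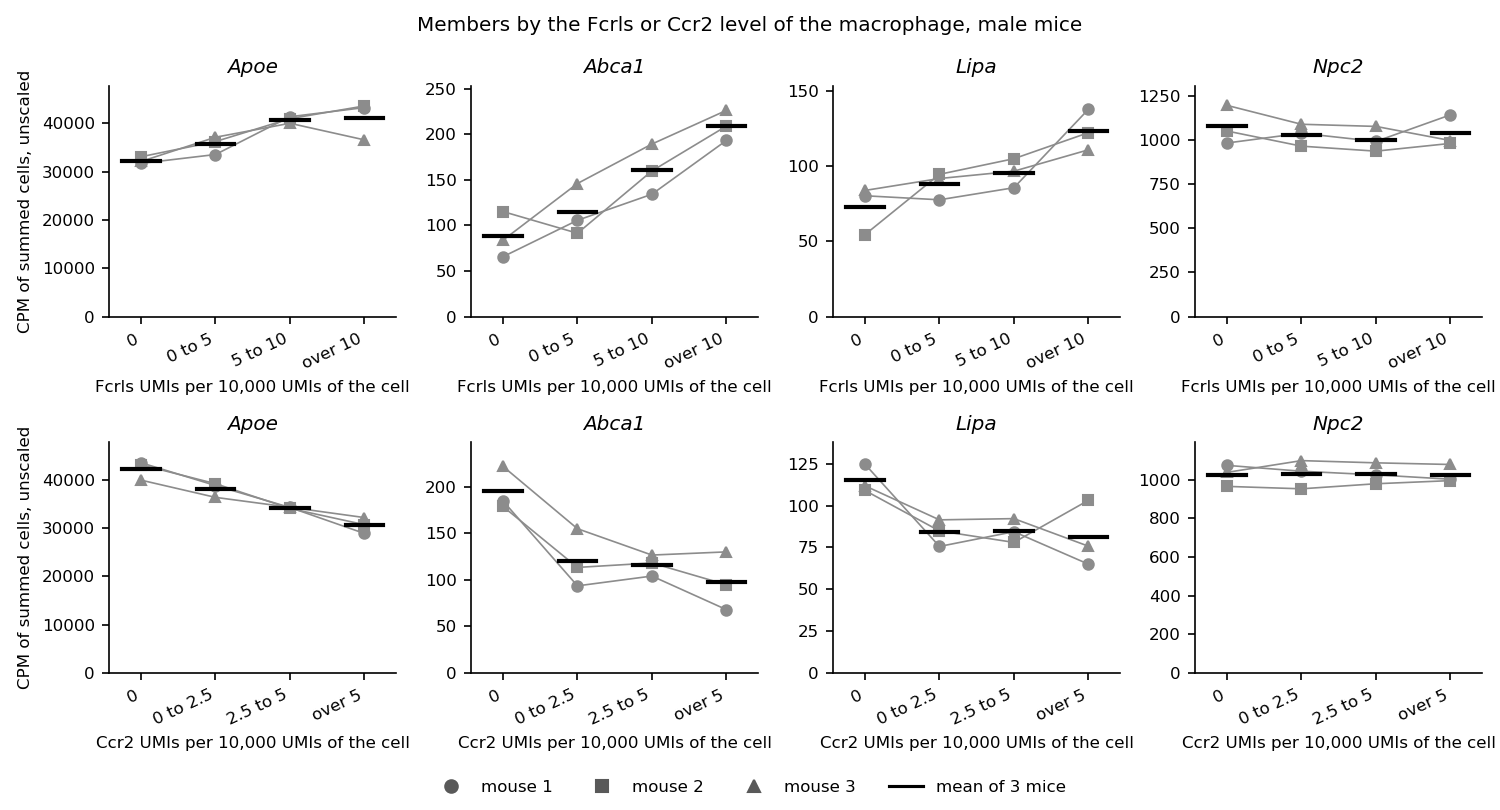
Unscaled CPM of Apoe, Abca1, Lipa and Npc2 (y axes, from 0) in male macrophages binned by Fcrls (top) or Ccr2 (bottom) UMIs per 10000 UMIs of the cell; each line is 1 mouse and the bar the mean of 3 mice. The Abca1 mean goes from 88.3 to 209.5 along Fcrls, and the Npc2 mean stays between 1001 and 1076.

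Other genes of the same pathways were read from lists. Of the sterol efflux and LXR list, 2 of 6 genes tested were higher in Fcrls-only than in Ccr2-only macrophages (background 3.79%) and none lower (5.16%). The list median was 0.22 on the log2 scale beside 0.02 for all genes tested. The 2 genes were Apoc1, an apolipoprotein of the same gene cluster as Apoe (22.0 ± 5.06 against 6.27 ± 5.25 CPM, log2 fold change 2.13, edgeR adjusted p = 0.0247), and Pltp, the phospholipid transfer protein (821 ± 212 against 533 ± 45.7, 0.60, 0.0171). Apoc1 was near the floor in Ccr2-only cells and passed the count filter only through Fcrls-only cells, where it was high. Apoc1 was also lower in double-positive than in Fcrls-only cells (-1.52, adjusted p = 0.0326).

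Of the lysosomal lipid breakdown list none of 15 was higher in Fcrls-only cells (background 3.79%). Psap, the sphingolipid activator precursor, was lower (930.9 ± 97.7 against 1734 ± 153 CPM, -0.90, adjusted p = 7.11e-05), so that Lipa moved against it. Of the fatty acid oxidation and PPAR list 1 of 8 was lower (background 5.16%). It was Pparg, a nuclear receptor that drives lipid uptake and storage (4.09 ± 1.95 against 21.9 ± 9.36 CPM, -2.45 ± 0.599, edgeR adjusted p = 0.0139). Pparg passed the count filter only through the groups with Ccr2, where it was high. None of 8 genes of cholesterol synthesis and none of 7 of lipid droplets and esters was called in either direction, at list medians of -0.42 and 0.07.

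The lists were also read between cell types, where the shares of all genes called higher or lower are those given above. Of 6 uptake genes 4 were higher in macrophages than in monocytes (20.4% of all genes), DCs (15.4%) and neutrophils (35.7%), and 5 than in B cells (31.7%) and T and NK cells (27.0%). Trem2, a lipid receptor, was among them against all 5 types at 3.46 to 6.26 on the log2 scale, and Cd36, a fatty acid scavenger receptor, was higher than in monocytes by 4.38 (190 ± 49.6 against 8.13 ± 4.01 CPM). Scarb1 (-2.60) was lower than in monocytes. Pltp, at 3.50 to 6.58, was called against all 5 types.

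Of the 9 genes of cholesterol synthesis tested, 5 were lower in macrophages than in monocytes (18.3% of all genes), 3 than in DCs (14.2%), 6 than in neutrophils (32.3%), 2 than in B cells (25.4%) and 3 than in T and NK cells (20.8%), and 1 was higher against DCs and 1 against neutrophils. Fdps, of the isoprenoid steps, was at -2.14 against monocytes (adjusted p = 2.59e-05). The counts of the 10 droplet genes are given with the share of all genes beside each. Against neutrophils 7 were lower in macrophages (32.3%) and 1 was higher (35.7%). The lipase inhibitor G0s2 was at -8.22 and Dgat2, which makes triglyceride, at -6.27, where Plin2 was not called. Against B cells 6 were higher (31.7%) and none lower (25.4%). Against T and NK cells 3 were higher (27.0%) and none lower (20.8%). Against monocytes 2 were higher (20.4%) and 3 lower (18.3%), and against DCs 1 was higher (15.4%) and none lower (14.2%). The counts of genes called higher against T and NK cells, monocytes and DCs were near the shares of all genes.

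Other marker genes moved along with the macrophage groups. Beside the list counts given here, 3.79% of all genes tested were called higher in Fcrls-only than in Ccr2-only cells and 5.16% lower. Immediate early genes, known to respond to tissue digestion, were higher in Fcrls-only cells for 5 of 8 (Fos, at 3655 ± 1459 against 1685 ± 19.3 CPM, among them), and the list took 1.07% to 1.76% of UMIs there, 0.799% to 1.15% in double-positive and 0.734% to 0.811% in Ccr2-only cells. Of the inflammatory list 1 of 7 was higher (Ccl3) and 2 were lower (Tnf at -1.28 and Il1b at -0.43), at a list median of 0.055. The list as a sum took 3.09% to 3.29% of UMIs in Fcrls-only and 2.69% to 2.99% in Ccr2-only cells, without overlap. Tnf and Il1b had the direction of Lpl and Ch25h, and the sum had the other. The glial list took 0.0565% to 0.0609% of UMIs in Fcrls-only and 0.029% to 0.0397% in Ccr2-only cells, with Pmp22 the 1 of 3 genes called (0.83, adjusted p = 0.00291). The monocyte list took 0.00668% to 0.00891% and 0.00635% to 0.0212%, with 1 of 2 genes called lower (Ms4a4c) and Ace at 0 in both, and the DC list 0.0191% to 0.0336% and 0.0134% to 0.019%, with 1 of 3 called higher (Siglech; both genes are named after their values were seen). The fibroblast list took 0.00585% to 0.0163% and 0.00317% to 0.00563%, without overlap and with Col1a1 at 0 in Ccr2-only cells, and neither of its 2 genes tested was called. The B cell list took 0.0319% to 0.037% and 0.0278% to 0.0369%, with 1 of 2 genes called higher (Cd79b, also named after its value was seen). The macrophage list, which holds the C1q genes of the gate, took 1.82% to 2.16% in Fcrls-only and 1.48% to 1.83% in Ccr2-only cells. The groups overlapped, with 1 of 8 genes called higher at a list median of 0.289. The neutrophil list took 0.0957% to 0.356% and 0.0894% to 0.103%, with the 0.356% in mouse 3 and none of 8 genes called. The part of these markers in the member differences was not tested.

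The 3 female mice gave the same contrast in cells that the filtered matrix does not hold, with 19, 17 and 19 Ccr2-only macrophages. Of 8 members tested 1 was higher (background 3.22% of 4039 genes) and 1 lower (3.61%) in Fcrls-only cells. Abca1 was at 168.7, 148.5 and 161.1 CPM in Fcrls-only and 44.0, 110.8 and 92.6 in Ccr2-only cells, without overlap (0.99 ± 0.274, edgeR adjusted p = 0.0322). The Ccr2-only values rest on 6, 12 and 12 UMIs, and the call was lost without mouse 1 (0.326), without mouse 3 (0.145), under DESeq2 (0.0672) and after thinning to 2000 UMIs (0.327). Abcg1 was at 18.6, 11.6 and 16.7 against 29.3, 83.1 and 54.0 CPM, again without overlap, and it fell by 1.73 ± 0.447 (adjusted p = 0.0215), a call lost without mouse 2 (0.305) or 3 (0.151).

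Apoe in the female mice was at 44124, 40419 and 37780 CPM in Fcrls-only and 26865, 37161 and 22232 in Ccr2-only cells, just outside the threshold (0.50 ± 0.152, adjusted p = 0.0533) and inside it with the mouse as a block (0.00335). Lipa (0.57) and Plin2 (0.32) had the sign of the male mice and no call. So had Npc2 (-0.15) and Ch25h (-0.78), but Npc2 was at 0.02 without the count filter, and Ch25h was lower in 2 of 3 mice, overlapped, and was at 0.03 with positive cells from 2 UMIs on. Npc1 had the opposite sign (-0.47, 95% interval -1.41 to 0.48). Lpl, under the count filter, was at 17.5 ± 7.02 in Fcrls-only and 37.5 ± 26.5 CPM in Ccr2-only cells and overlapped. The difference between the sexes was tested by an interaction term: 0 of 6301 genes were called by edgeR (0.0%), where 264 had an unadjusted p under 0.05 and DESeq2 called 1. For Abcg1 it was -1.17 (95% interval -2.29 to -0.05, adjusted p = 0.9999) and for Lpl 1.30 (-0.36 to 2.95).

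**Figure D4:**
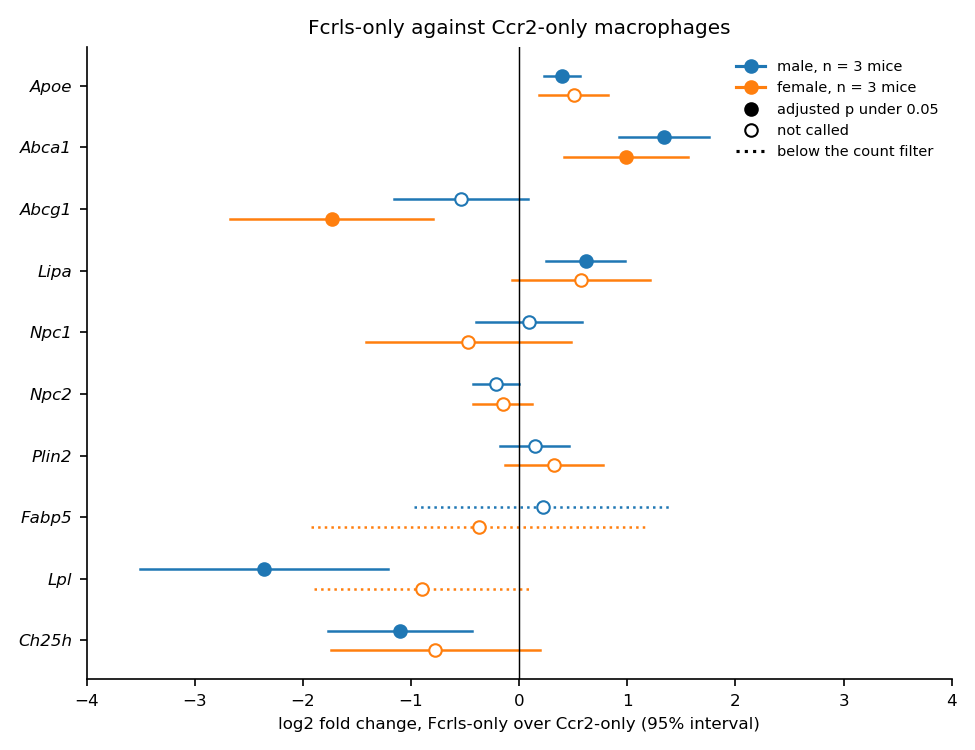
Log2 fold change of Fcrls-only over Ccr2-only macrophages (x axis) with its 95% interval for each gene in male and female mice, n = 3 mice each; filled points passed an adjusted p of 0.05 and dotted intervals mark genes under the count filter, from the fit without it. Abca1 passes in both sexes at 1.34 and 0.99, and every other called gene passes in 1 sex.

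The genes whose level went most like each member over the 24 sums (3 macrophage groups and 5 other types in 3 mice) are given as a description, with sums that share mice and depth. For Apoe they were Cxcl1, Trem2 and Ctsb (Pearson r of log2(CPM + 1) = 0.989, 0.983 and 0.976), for Abca1 Sdc4, Fam213b and C1qc (0.930, 0.919 and 0.916), and for Ch25h Cxcl14, Sash1 and C1qa (0.959, 0.950 and 0.942). Npc2 was nearest to Scarb2, Bst2 and Ms4a6d (0.943 to 0.940), Lipa to Atp6ap1 and Colec12 (0.923 and 0.914), Plin2 to Ifitm2, Sirpa and Clec4a3 (0.939 to 0.922), and Npc1 to Slc29a3, Man1c1 and P2ry6 (0.887 to 0.857). Lpl was nearest to Ptafr, Il1b and Fth1 (0.841 to 0.821), Fabp5 to Ube2d3, Syf2 and Yy1 (0.918 to 0.899) and Abcg1 to Fam172a, Chd8 and Birc6 (0.871 to 0.856). Many genes are high in macrophages alone, so that a high r over these sums is common. C1qa and C1qc were part of the gate that chose the macrophages, so their r is no result.

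In GENCODE M21 (GRCm38) the members are protein-coding genes at separate places except for Ch25h and Lipa, which lie close together on chromosome 19 and on the same strand, at chr19:34473778-34475164 and chr19:34492318-34527474. Ch25h fell and Lipa rose in Fcrls-only cells. Abca1 lies at chr4:53030787-53159895, Apoe at chr7:19696109-19699188, Lpl at chr8:68880491-68907448, Abcg1 at chr17:31057675-31117988, Npc1 at chr18:12189692-12236400, Npc2 at chr12:84754562-84773152, Plin2 at chr4:86648386-86670060 and Fabp5 at chr3:10012548-10016607.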

How the data were processed

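The authors deposited raw UMI counts from Cell Ranger 3.1.0 (mm10): a filtered matrix of 2668 cells and a larger matrix of 4395 barcodes with hashtag counts. HTODemux (Seurat 5.3.0) on all barcodes, then the study's filters (over 200 and under 5000 genes, under 5% mitochondrial UMIs), left 3741 cells with 1 hashtag; 269 doublets and 101 negatives were removed. The 2668 cells with a male hashtag were the deposited cells. Hashtags were taken as mice from the deposited notes. Macrophages had at least 0.5% C1q UMIs; neutrophils at least 2% neutrophil-marker UMIs; other types needed at least 3 markers and a lead of 0.1 in the share of markers found, and 42 male cells lay at 0.2% to 0.8% C1q. The neutrophil and marker-count thresholds were set after the data were seen, and the members and lists were chosen with earlier results of these data known.

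UMIs were summed per mouse and group, since cells are not replicates. edgeR 4.0.16 (TMM, filterByExpr, quasi-likelihood, Benjamini-Hochberg over all genes tested; R 4.3.3) was fitted without the mouse. Sums of one mouse are the same animal, and their deviations from the group means correlated at r = 0.0402, 0.103 and 0.215, against -0.133 to 0.0258 between mice, so the mouse was a block in an alternative. TMM factors ran from 0.564 in neutrophils to 1.40 in B cells in the fit over types, so folds differ from unscaled ratios. Floors were 3 counts and intervals 95%, for counting error only. Named were all members, and of each list up to 3 called genes per direction with the largest fold that moved alike in each mouse, and 3 nearest genes per member by Pearson r at a mean of at least 10 CPM; some genes that this rule names are not reported here. Scripts were tested on simulated data. DESeq2 1.42.0, Scrublet (scanpy 1.11.5), other gates and thinning were alternatives.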

Additional observations from a re-analysis of the deposited data

How the results depend on the processing

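All 29 member calls between macrophages and another type held under every alternative run (DESeq2, RLE factors, no count filter, mouse as a block, each mouse left out, a C1q gate at 1%, no Scrublet doublets), as did Abca1 between Fcrls-only and Ccr2-only cells. No member call reversed. Of 822 alternative member values 778 stayed on their side of the threshold, 25 lost a call and 19 gained one. Lipa lost its call under DESeq2 (adjusted p = 0.0938) and with the gate at 1% C1q (0.0563).

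Counts of called genes moved more. With no filter on low counts the counts were 246 (double-positive against Fcrls-only), 164 (against Ccr2-only), 6761 (neutrophils) and 24 (sexes). With the mouse as a block they were 452, 232 and, for the sexes, 2. With cells thinned to 2000 UMIs they were 143 for Fcrls-only against Ccr2-only, 15 and 6 for the double-positive comparisons and 134 for the female mice, the last chosen after seeing the data. With positive cells from 2 UMIs on 49 genes differed between double-positive and Fcrls-only cells, and DESeq2 called 1 for the sexes. Leaving out each mouse gave 300 to 331 (Fcrls-only against Ccr2-only), 17 to 73 and 9 to 37 (double-positive), 1451 to 2083 (monocytes), 1088 to 1803 (DCs), 99 to 175 (female mice) and 0 to 2 (sexes). Without the filter 53.8% of the genes called between Fcrls-only and Ccr2-only cells were higher, against 42.3% with it, and the median of all genes was 0.143 against 0.0188 on the log2 scale. With the mouse as a block no member call was lost and no call changed beyond those given with the results. The causes were not tested. The Ccr2-only sums, with 24, 48 and 84 male cells, limit the depth for low genes such as Lpl, Ch25h and Fabp5.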
